A study of Mus musculus with 4 samples.

Results

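The histone genes of dorsal root ganglia (DRG) were the 86 genes, of 48431 listed, whose symbols follow the mouse naming patterns Hist1 to Hist4, H2af, H3f3 and H1f. Members were taken by symbol alone, and no symbol was listed more than once. The 69 genes named Hist1 to Hist4 are called replication-dependent here and the other 17 replication-independent, after their naming. The RNA came from DRG of male mice labelled strain SW and genotype WT, given methylglyoxal (MGO) by intraperitoneal injection at 2 mg/kg over 6 days. All 4 libraries belong to this MGO group, so the values describe levels within treated ganglia and say nothing of a response to MGO. No label says if these 4 were separate animals, and p-values measure only the spread between the libraries. In bulk tissue, fewer cells of a type and less RNA per cell cannot be told apart.

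Levels are read counts scaled to a total of 1000000 per library (CPM), the form that the deposited values had. The libraries were made with a 3′ end kit, in which a transcript gives reads mainly near a poly(A) tail and not in proportion to its length. Levels of different genes are therefore given in CPM. Values per kilobase of exon (CPM per kb) stand beside them only as an alternative scale, since such reads do not follow length. The length used is that of all annotated exons of a gene combined, which can exceed that of any of its transcripts. The steps between values correspond to 10138766, 8975726, 5576834 and 7223765 reads in replicates 1 to 4, and a count of 0 allows up to 0.296, 0.334, 0.538 and 0.415 CPM in them (3 reads). That limit covers counting error only. Replicates 1 and 2 stood apart from replicates 3 and 4: entries of ribosomal RNA (3 in the table) were at 0 in replicates 1 and 2 and took 8.26% and 10.8% of replicates 3 and 4, and no label accounts for this.

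Histones package DNA into nucleosomes: H2A, H2B, H3 and H4 form the core, and H1 binds the linker DNA. Replication-dependent genes lie in clusters, supply the bulk of histone protein in S phase, and give mRNAs that typically end at a conserved stem-loop without a poly(A) tail. Replication-independent genes are spread over the genome, give polyadenylated mRNAs and encode variants that cells use outside S phase, among them neurons and other cells that no longer divide.

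Histone genes together gave 1643, 1599.8, 1140 and 985 CPM in replicates 1 to 4 (mean 1342 ± 329 CPM, SD, n = 4). The 17 replication-independent genes summed to 1310, 1284, 985 and 864 CPM, against 333, 316, 155 and 121 CPM for the 69 replication-dependent genes. The replication-independent sum was higher in 4 of 4 libraries, 5.37 ± 1.62 times the replication-dependent sum (SD, n = 4) with a range of 3.94 to 7.13 times. The difference was 879 ± 113 CPM (exact two-sided sign-flip test, p = 0.13, the smallest value that 4 libraries allow). Replication-dependent genes supplied 20.3% and 19.8% of histone reads in replicates 1 and 2, and 13.6% and 12.3% in replicates 3 and 4. The kit reads mainly near poly(A) tails, so mRNAs that end at the stem-loop without a tail may be missed in part or whole. The sums, shares and detection counts given here therefore describe captured reads, not the RNA that each class has in the ganglia. How much RNA was missed was not tested.

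Of the 86 members, 18 reached 1 CPM in all 4 libraries, and these are called detected. They were 10 of the 17 replication-independent genes (58.8%) and 8 of the 69 replication-dependent genes (11.6%). The same share was 26.5% of all listed genes and 54.4% of protein-coding genes. The other 7 replication-independent genes were 6 that are listed at 0 in all 4 libraries (H1fnt, H1foo, H2afb2, H2afb3, H2afy3 and H3f3c) and H2afb1, with 1 read in replicate 2. H1fnt and H1foo are the testis and oocyte linker histones, and the H2afb genes encode short H2A variants of the male germ line. Among replication-dependent genes, 40 were at 0 in all 4 libraries, 19 lay above 0 with a mean under 1 CPM and 10 had a mean of at least 1 CPM. Just inside that limit were Hist1h4h (mean 2.23 CPM) and Hist2h2be (1.08 CPM), and just outside it Hist2h4 (0.842 CPM) and Hist1h1d (0.802 CPM). The handling of multiply mapped reads is not given, so a 0 in a gene with near-identical copies need not mean that it gave no RNA. Copies were sought only for members with a mean of at least 1 CPM.

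**Figure D1:**
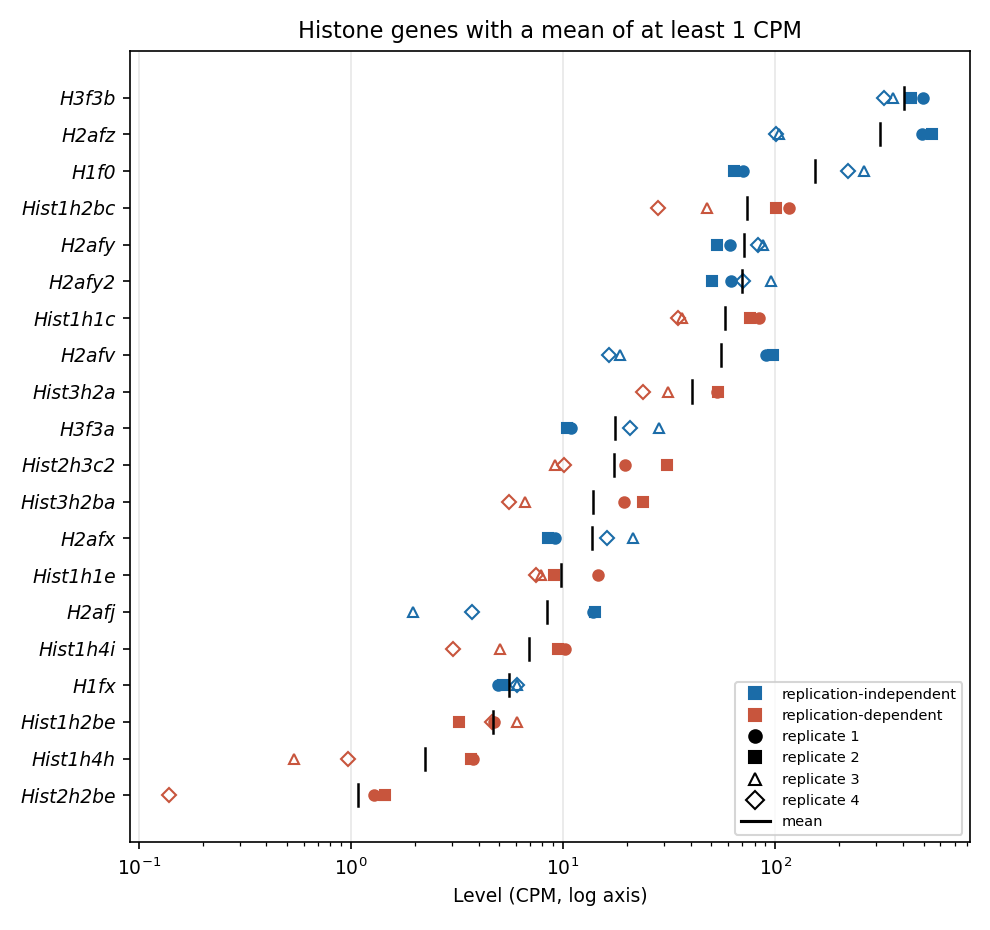
Levels of the 20 histone genes averaging 1 CPM or more, in CPM on a log axis, with 1 point per library and the mean as a bar. H3f3b, H2afz and H1f0 lead with means of 404, 311 and 154 CPM, and 10 of the 20 genes are replication-dependent.

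The Hist1 to Hist4 name groups differed in how many genes were detected. The Hist1 genes had 5 detected of 56, and the annotation places 54 of them on chromosome 13, among them the pseudogene Hist1h2al (chr13:51202727-51203065), which lies far from the other 53. Hist2 on chromosome 3 had 1 of 10, and Hist3 on chromosome 11 had both of its 2. Hist4h4, the only Hist4 gene, averaged 0.285 ± 0.195 CPM (SD, n = 4). By histone type, 4 of 10 H1 genes, 7 of 30 H2A, 3 of 18 H2B, 3 of 15 H3 and 1 of 13 H4 genes were detected, beside 26.5% of all listed genes. These counts mix the 2 classes. Of replication-dependent genes, 2 of 6 H1, 1 of 20 H2A, 3 of 18 H2B, 1 of 12 H3 and 1 of 13 H4 genes were detected. Of replication-independent genes, 2 of 4 H1, 6 of 10 H2A and 2 of 3 H3 genes were detected.

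H2A genes gave 570 ± 270 CPM in sum, H3 genes 439 ± 75.9 CPM, H1 genes 228 ± 74.6 CPM, H2B genes 93.0 ± 50.6 CPM and H4 genes 10.6 ± 5.17 CPM (SD, n = 4). H2B and H4 have no replication-independent member in the table, and they were the lowest sums. The limit of the kit bears on these genes where their mRNAs lack a poly(A) tail, and its part in the low sums was not tested. Hist1h2bc, the H2B gene with the highest mean (73.3 CPM), had no stem-loop match in its annotated transcript. H4 genes summed to 15.8, 14.3, 6.46 and 5.81 CPM, or 0.752% ± 0.203 of histone reads (SD, n = 4). Within the other types, replication-dependent genes gave 3.86% ± 1.87 of H3 reads and 7.46% ± 0.951 of H2A reads. In H1 they gave 57.4% and 55.6% in replicates 1 and 2, and 14.7% and 16% in replicates 3 and 4.

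**Figure D2:**
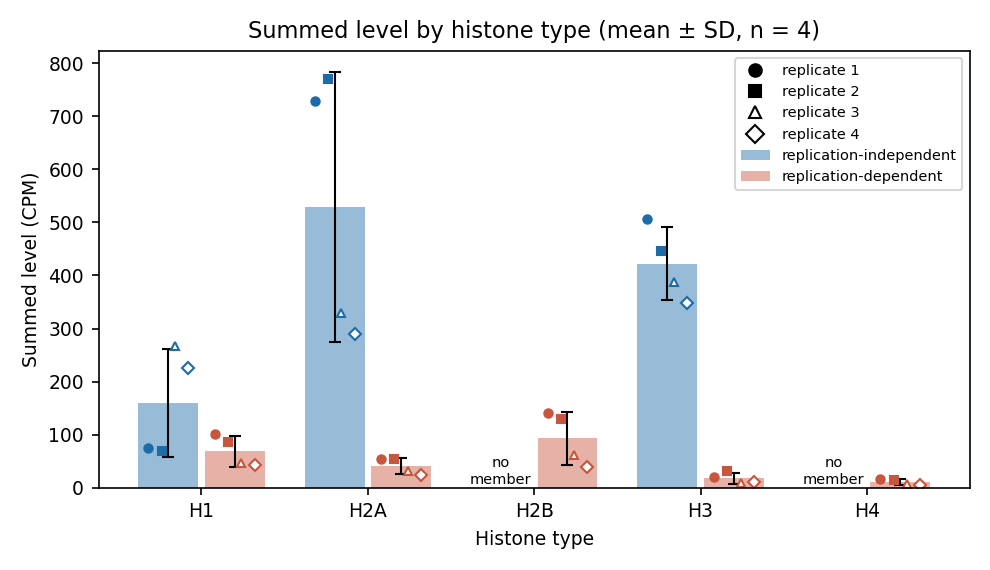
Summed level of each histone type in CPM, with replication-independent genes left and replication-dependent genes right, bars as the mean of 4 libraries, error bars as the SD and points as libraries. H2A and H3 reads came mostly from replication-independent genes, while H2B and H4 have replication-dependent members only.

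H3f3b had the highest mean level of the histone genes in CPM, although H2afz was above it in replicate 2 and the difference between them did not pass, as given further on. H3f3b and H3f3a both encode H3.3, the H3 variant that is deposited outside S phase and replaces H3 in neurons with age. H3f3b (chr11:116021912-116027962, minus strand, GRCm38) had 495, 435, 360 and 327 CPM (mean 404 ± 75.5, SD, n = 4). H3f3a (chr1:180800832-180813943, minus strand) had 10.9, 10.5, 28.3 and 20.6 CPM (mean 17.6 ± 8.55). The ranges of the 2 genes did not overlap. H3f3a was lower than H3f3b by a log2 difference of -4.54 (SE 0.35, adjusted p = 1.25e-05, limma on log2(CPM + 1) of 1 gene minus the other in the same library, lower in 4 of 4 libraries). Per kb of exon the means were 5.02 CPM per kb for H3f3a and 136 CPM per kb for H3f3b. H3f3a shares 638 exonic bases on the opposite strand with Gm17275, which had 158, 137, 122 and 90.8 CPM, and whether the authors' counting used strand is not given in the sources used here. Reads of the 2 genes therefore cannot be told apart. H3f3a and Gm17275 together had 169, 147, 151 and 111 CPM, still below H3f3b (log2 difference -1.48, SE 0.17, adjusted p = 0.000116).

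Against H3f3b, 18 of the 19 other members with a mean of at least 1 CPM were lower and 0 higher. With H3f3b among the most abundant genes, 96.4% of the 14816 genes tested were lower than it and 1.05% higher, so the members' share is near that of all genes. Every test in such a fit shares the noise of the gene compared against. H2afz was the member that did not pass (log2 difference -0.79, SE 0.41, adjusted p = 0.106, lower in 3 of 4 libraries). Without replicate 2 it was lower (log2 difference -1.16, adjusted p = 0.028). Per kb the means were 175 CPM per kb for H2afz and 136 CPM per kb for H3f3b. With values divided by length and rescaled the difference did not pass either (log2 difference -0.05, adjusted p = 0.917, lower in 2 of 4 libraries).

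The H2A variants spanned a wide range. H2afz and H2afv encode the H2A.Z proteins, a variant found at promoters and around transcription start sites. H2afz (chr3:137864487-137866922, plus strand) had 492 and 546 CPM in replicates 1 and 2, and 104 and 100.4 CPM in replicates 3 and 4. H2afv had 90.1 and 97.4 CPM in replicates 1 and 2, and 18.6 and 16.5 CPM in replicates 3 and 4. Both genes were thus high in the same 2 libraries, without overlap. H2afv was lower than H2afz in each library (log2 difference -2.47, SE 0.52, adjusted p = 0.00119), and the means were 34.1 CPM per kb for H2afv and 175 CPM per kb for H2afz.

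H2afy and H2afy2 encode macroH2A1 and macroH2A2, H2A variants with a large extra domain that are associated with silent chromatin. H2afy had 61.1, 53.1, 87.5 and 83.1 CPM (71.2 ± 16.7), and H2afy2 had 62.0, 50.5, 95.9 and 70.9 CPM (69.8 ± 19.3, SD, n = 4 each). Their CPM values overlapped, while per kb H2afy had 10.5 CPM per kb and H2afy2 32.1 CPM per kb. The divisor was 6809 combined exonic bases for H2afy and 2175 for H2afy2, although the longest coding H2afy transcript model has 2046 bases. H2afy2 shares 233 exonic bases on the opposite strand with Aifm2 (11.2 to 15.4 CPM). Both macroH2A genes were lower than H2afz, by log2 differences of -1.71 for H2afy (SE 0.69, adjusted p = 0.0392) and -1.75 for H2afy2 (SE 0.69, adjusted p = 0.036). These calls were lost without replicate 1 (adjusted p = 0.139 and 0.122, log2 differences -1.29 and -1.34), without replicate 2 (adjusted p = 0.146 and 0.138, log2 differences -1.17 and -1.19) and on the means of the 2 library pairs, a fit with 1 residual degree of freedom (adjusted p = 0.171 and 0.162).

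H2afx encodes H2A.X, whose phosphorylated form marks DNA breaks. It had 9.17, 8.47, 21.3 and 16.1 CPM (13.8 ± 6.10), with replicates 3 and 4 above replicates 1 and 2, and was lower than H2afz by a log2 difference of -4.06 (SE 0.74, adjusted p = 0.000473). H2afj, the gene of the variant H2A.J, had 13.8, 14.1, 1.97 and 3.74 CPM (8.42 ± 6.46), with the opposite order of libraries. Its log2 difference from H2afz was -4.95 (SE 0.53, adjusted p = 1.72e-05). Against H2afz, 17 of 19 members were lower and 0 higher, beside 86.2% lower and 0.965% higher among all 14816 genes tested.

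Of the linker histones, H1f0 led. H1f0 encodes H1.0, the linker histone of cells that have stopped dividing. H1f0 (chr15:79028450-79030504, plus strand) had 70.5 and 63.7 CPM in replicates 1 and 2, and 261 and 219 CPM in replicates 3 and 4 (154 ± 101, SD, n = 4). Hist1h1c, the replication-dependent gene of H1.2, had 83.8 and 76.4 CPM in replicates 1 and 2, and 36.2 and 34.9 CPM in replicates 3 and 4 (57.8 ± 25.9). The order of the 2 genes thus turned between the libraries: Hist1h1c was above H1f0 in replicates 1 and 2 and below it in replicates 3 and 4. Over all 4 libraries the difference did not pass (log2 difference -1.23, SE 0.68, adjusted p = 0.11), and it passed without replicate 1 (-1.72, adjusted p = 0.0364) or without replicate 2 (-1.73, adjusted p = 0.0269). The means per length were 37.1 CPM per kb for Hist1h1c and 74.7 CPM per kb for H1f0.

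Hist1h1e, the gene of H1.4, had 14.7, 9.02, 7.89 and 7.48 CPM and was lower than H1f0 (log2 difference -3.61, SE 0.63, adjusted p = 0.000152). Its annotated transcript end shares 496 exonic bases on the same strand with Hist1h2be, so reads there cannot be assigned to either gene. H1fx, the gene of H1.10, had the smallest spread of the 20 genes relative to its level as listed, at 4.93, 5.24, 6.10 and 6.09 CPM (5.59 ± 0.596, SD, n = 4), and was lower than H1f0 by a log2 difference of -4.28 (SE 0.58, adjusted p = 1.88e-05). Hist1h1d, the gene of H1.3, had 1.97, 0.557, 0.538 and 0.138 CPM. Against H1f0, 12 of 19 members were lower and 1 (H3f3b) was higher, beside 76.6% lower and 2.37% higher among all genes tested. In that fit the H3f3b call (log2 difference 1.65, adjusted p = 0.0267) was lost without replicate 1 (1.26, adjusted p = 0.128), without replicate 2 (1.28, adjusted p = 0.104), on the means of the library pairs (adjusted p = 0.196) and per length (1.12, adjusted p = 0.109). In the fit against H3f3b, H1f0 was lower than H3f3b (log2 difference -1.65, SE 0.48, adjusted p = 0.0133, lower in 4 of 4 libraries), a call lost when values were divided by exonic length (-1.12, adjusted p = 0.0691).

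Among replication-dependent genes, 3 held most of the reads. Hist1h2bc, Hist1h1c and Hist3h2a together gave 73.8% ± 1.91 of replication-dependent reads (SD, n = 4), with a range of 71.6% to 76.2%. Hist1h2bc (chr13:23684199-23692908, plus strand), an H2B gene, had 116 and 101 CPM in replicates 1 and 2, and 47.7 and 28.1 CPM in replicates 3 and 4 (73.3 ± 42.1). Its mean level per kb, 63.4 CPM per kb, was the highest of the replication-dependent genes. Its coding sequence is at least 97% identical to that of 12 other genes, 10 of them members, while its last 300 transcript bases match no other gene at that level. The copies listed in the table summed to a mean of 4.68 CPM, all of it from Hist1h2be.

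Hist3h2a, an H2A gene, had 53.4, 54.0, 31.2 and 23.8 CPM (40.6 ± 15.4), and its neighbour Hist3h2ba, an H2B gene, had 19.3, 23.8, 6.63 and 5.54 CPM (13.8 ± 9.15). Both were higher in replicates 1 and 2 than in replicates 3 and 4, without overlap. Hist3h2a shares 708 exonic bases on the same strand with Trim17, which had at most 1.53 CPM. Per kb, Hist3h2a had 18.9 and Hist3h2ba 22.5 CPM per kb. Hist2h3c2, the H3 gene of the Hist2 cluster that was detected, had 19.6, 30.7, 9.15 and 10.1 CPM (17.4 ± 10.1). Its coding sequence is at least 97% identical to 3 other genes, among them Hist2h3c1, which had only fractions of 1 read.

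The H4 genes were few and low. Hist1h4i had 10.3, 9.47, 5.02 and 3.05 CPM (6.95 ± 3.48), and Hist1h4h had 3.75, 3.68, 0.538 and 0.969 CPM (2.23 ± 1.72). Hist2h4 had 0.986, 0.557, 0.717 and 1.11 CPM, with its highest value in replicate 4. Hist1h2be, an H2B gene, had 4.73, 3.23, 6.10 and 4.64 CPM (4.68 ± 1.17), and Hist2h2be, another H2B gene, had 1.28, 1.45, 1.43 and 0.138 CPM. Hist1h2be shares 496 exonic bases on the same strand with Hist1h1e, and its coding sequence is at least 97% identical to that of Hist1h2bc. Its level, and so its detection, may therefore include reads of other genes. The 20 members above 0 with a mean under 1 CPM had at most 29 reads over all libraries, with a median of 2 reads, and 12 of them had no more than 3 reads in any library.

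The stem-loop that ends replication-dependent mRNAs was searched in the GENCODE M21 transcript models, as a hairpin of 16 bases on the transcript strand. Its left arm reads GGNNCT, its loop TTTN and its right arm AGNNCC. The forms printed here show the 6-base stem arms in lower case and the 4-base loop in capitals, and they are given because 3′ end libraries are primed at poly(A) tails or A-rich stretches. The motif was present in 42 of the 69 replication-dependent genes and in 1 replication-independent gene, H2afx. All 42 stems paired at all 6 positions, but the searched letters already pair outside the positions written N, so only those could have failed to pair. The motif was present in 0.329% of all 21866 coding genes and in 0.133% of the 21786 that are no members.
Hist1h1c, H1 (chr13:23739512-23739527, plus strand): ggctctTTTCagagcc
Hist3h2a, H2A (chr11:58955172-58955187, plus strand): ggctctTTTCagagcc
Hist1h4h, H4 (chr13:23531458-23531473, plus strand): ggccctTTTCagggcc
Hist1h4i, H4 (chr13:22040966-22040981, minus strand): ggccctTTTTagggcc
Hist1h4j, H4 with 1 read in all (chr13:21735437-21735452, plus strand): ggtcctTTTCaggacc
Hist1h2bb, H2B, listed at 0 (chr13:23747203-23747218, plus strand): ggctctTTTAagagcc
H2afx, replication-independent (chr9:44335240-44335255, plus strand): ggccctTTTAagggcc

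The loop was TTTC in 33 of the 42 genes, TTTA in 6 and TTTT in 3. Detected and undetected genes shared stem-loops: Hist1h1c and Hist3h2a carry the same 16 bases as Hist1h2ac, which is listed at 0. Of the 27 replication-dependent genes without a match, 2 had no entry in the annotation, 2 were annotated as pseudogenes, 15 had models that end within 10 bases of the stop codon, and 8 have a longer 3′ part that lacks these letters, among them Hist1h2bc and Hist2h2be. The Hist1h2bc model has 1156 exonic bases within chr13:23684199-23692908, and genomic bases outside its exons were not searched.

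Detected and undetected genes differed in the annotated length of transcript beyond the stem-loop, which is described here without a test. The 7 detected replication-dependent genes with a stem-loop had 169 to 1861 bases after it (median 840), and the 35 that were not detected had 3 to 4884 bases (median 46). Of the 21 genes with more than 100 bases after the stem-loop, 7 were detected and 4 were at 0 in all libraries. Of the 21 genes with 100 bases or fewer, 0 were detected and 17 were at 0 in all libraries. Beyond the stem-loop, the detected genes had 169 bases in Hist3h2ba, 330 in Hist1h4i, 377 in Hist2h3c2, 840 in Hist1h1c, 1153 in Hist1h1e, 1643 in Hist3h2a and 1861 in Hist1h2be. There were exceptions in both directions. Hist1h2ac has 2010 bases beyond its stem-loop and was at 0 in all libraries, and Hist1h4h has 46 bases beyond and a mean of 2.23 CPM.

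A poly(A) signal AATAAA in the last 50 bases of a coding transcript model was present in 14 of the 65 replication-dependent genes with a coding model, 3 of the 8 detected and 11 of the 57 others. Over all coding genes the share was 65.8%. The detected genes with the signal were Hist1h1c, Hist3h2a and Hist3h2ba, which are printed with the hexamer in capitals and the bases after it, up to the end of a transcript model or 30 bases in all, beside the most abundant replication-independent pair. A missing match says only that these letters are not in this window.
Hist1h1c (chr13:23740342-23740367, plus strand): AATAAAaagcgtttagttttcattca
Hist3h2a (chr11:58956797-58956826, plus strand): AATAAAataagagtacgtgtataacataag
Hist3h2ba (chr11:58949507-58949533, plus strand): AATAAAtttggttcaattttggccaca
H3f3b (chr11:116021975-116022004, minus strand): AATAAActagtaagtttggagtttttttcc
H2afz (chr3:137866802-137866818, plus strand): AATAAAggtcatatccc

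Histone genes of the clusters often lie in divergent pairs that share the region between their starts. Of the 12 pairs with starts less than 500 bases apart, 11 had no detected gene and 1 had 1. In that pair Hist1h2bc had a mean of 73.3 CPM and Hist1h2ac was at 0 in all libraries, although the 2 starts are 239 bases apart in the RefSeq promoter tables of GRCm38.p6 (250 bases in GENCODE). The region is printed on the minus strand, from the Hist1h2bc side to the start of Hist1h2ac, with TATAA and CCAAT, on either strand, in capitals.
Hist1h2bc to Hist1h2ac (chr13:23683960-23684198, minus strand): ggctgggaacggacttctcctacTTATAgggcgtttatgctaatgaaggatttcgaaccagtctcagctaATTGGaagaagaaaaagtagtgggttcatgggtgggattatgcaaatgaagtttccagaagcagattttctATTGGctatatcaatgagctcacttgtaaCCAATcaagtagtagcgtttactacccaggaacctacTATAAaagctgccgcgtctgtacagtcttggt
TATAA lies at bases 208 to 212, its reverse complement at bases 24 to 28, CCAAT at bases 171 to 175 and its reverse complement at bases 71 to 75 and 142 to 146, with no overlap among them. Each side thus holds a TATAA near its own start. Over the 300-base RefSeq promoter windows, TATAA on either strand was present in 5 of 7 detected and 44 of 54 other replication-dependent genes, and in 24.9% of all 32851 windows. CCAAT was present in 6 of 7 detected genes, in 46 of 54 others and in 37.4% of all windows.

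Replicates 1 and 2 stood apart from replicates 3 and 4 in several histone genes. The split into pairs follows the ribosomal RNA entries and has no label, so it is described and not tested. Of the 20 members with a mean of at least 1 CPM, 9 were higher in replicates 1 and 2 without overlap and by at least 2 times on log2(CPM + 1), and 2 were higher in replicates 3 and 4. Over all 14817 genes these shares were 20.5% and 9.63%. The median log2 difference, replicates 1 and 2 minus 3 and 4, was 0.74 over the members and 0.16 over all genes.

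The 9 genes were H2afv (log2 difference 2.35), H2afz (2.33), H2afj (2.00), Hist3h2ba (1.67), Hist1h2bc (1.54), Hist1h4h (1.44), Hist2h3c2 (1.27), Hist1h1c (1.15) and Hist1h4i (1.14). The 2 genes in the other direction were H1f0 (-1.82) and H3f3a (-1.11), and H2afx had -0.99. H3f3a summed with Gm17275, whose reads cannot be told apart from it, averaged 158 CPM in replicates 1 and 2 and 131 CPM in replicates 3 and 4, with overlap between the pairs, so the direction given for H3f3a alone turned with that sum. Replication-dependent genes had 6 of 10 higher in replicates 1 and 2 and 0 in the other direction, with a median difference of 1.14. Replication-independent genes had 3 of 10 and 2 of 10, with a median of -0.39. H3f3b (0.43) and H1fx (-0.22) moved little between the pairs. The 3 replication-dependent genes with the lowest differences were Hist1h2be (-0.36), Hist2h2be (0.51) and Hist1h1e (0.53).

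**Figure D3:**
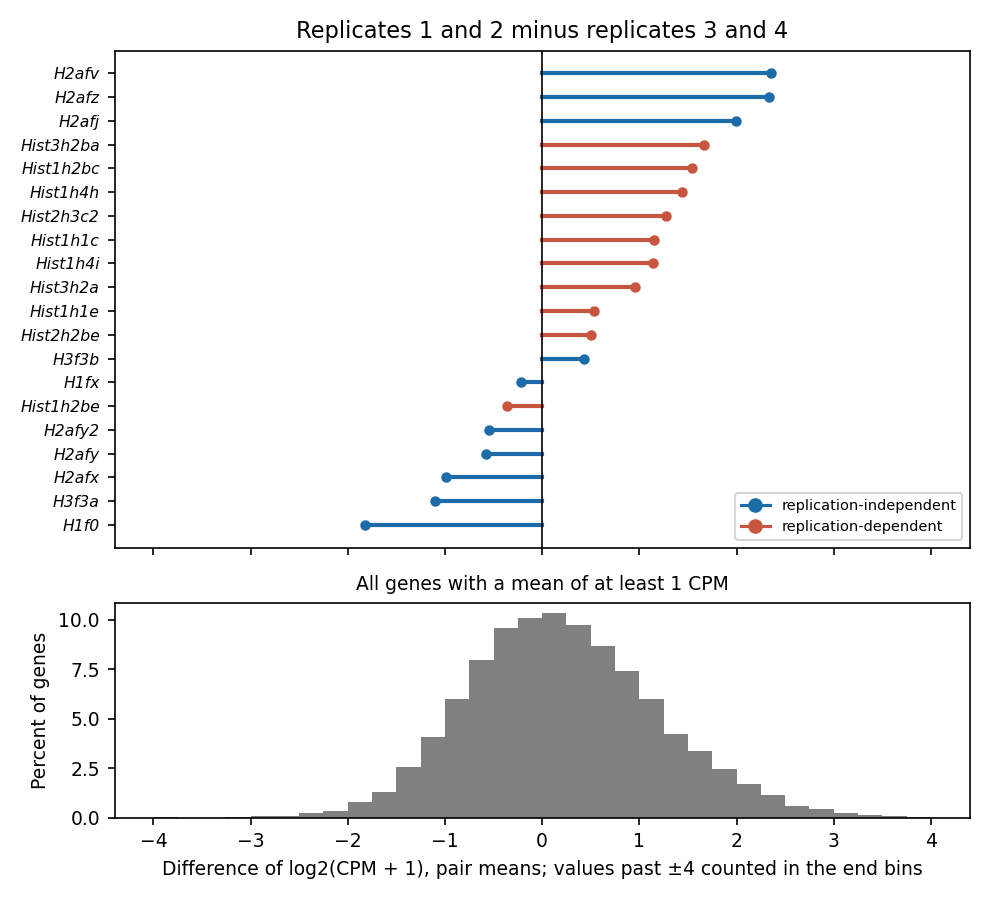
Difference of mean log2(CPM + 1), replicates 1 and 2 minus replicates 3 and 4, for the 20 histone genes averaging 1 CPM or more, beside the distribution over all 14817 genes. H2afv and H2afz lie highest at 2.35 and 2.33, and H1f0 lowest at -1.82.

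Several other measures moved with the pairs, and their part in the histone values was not tested. Among marker lists fixed for this work, the Schwann cell sum (5 of 5 detected) was 28565 and 27539.7 CPM in replicates 1 and 2, and 15371 and 14978 CPM in the other pair. The satellite glia sum (5 of 5) was 1165 to 1202 CPM in replicates 1 and 2, beside 556 to 608 CPM in replicates 3 and 4. Kcnj10 and Cdh19 of that list ran against it without overlap (log2 differences -0.45 and -0.43), and Apoe gave most of the sum. The blood sum (5 of 5) was 955 to 1071 CPM in replicates 1 and 2, beside 498 to 534 CPM in replicates 3 and 4, with Hba-a2 (-1.25) and Alas2 (-1.10) running against it. Sums for skeletal muscle, fibroblast and macrophage markers (5 of 5, 5 of 5 and 2 of 5 detected) were higher in replicates 1 and 2 as well, without overlap. Over all 4 libraries they spanned 421 to 864 CPM for muscle, 1306 to 1923 CPM for fibroblast and 127 to 228 CPM for macrophage markers. The fibroblast markers were divided: Col1a2 (0.75) and Dcn (0.89) went with the sum, and Col1a1 ran against it without overlap (-0.45). Col3a1 (-0.01) and Lum (-0.03) moved little. The endothelium sum (5 of 5) was 128 and 134 CPM in replicates 1 and 2, beside 148 and 151 CPM in replicates 3 and 4. Its markers were divided, with Cldn5 (-1.05) and Flt1 (-0.74) lower in replicates 1 and 2 on average and Pecam1 (0.31), Cdh5 (0.93) and Kdr (0.95) higher. The lymphocyte sum (1 of 5 detected, Cd4 at 0 throughout) was 6.12 and 6.35 CPM in replicates 1 and 2, beside 9.14 and 7.75 CPM in replicates 3 and 4. The sensory neuron sum (10 of 10 detected, the check of the tissue label) overlapped between the pairs, at 9977 and 10477 CPM in replicates 1 and 2, beside 11026 and 9553 CPM in replicates 3 and 4. Exonic length also differed. The median was 1156 bases for the 9 members higher in replicates 1 and 2, and 3046 bases for all genes higher there. It was 2779.5 bases for the 2 members higher in replicates 3 and 4, and 4610 bases for all genes higher there. All genes averaging 1 CPM or more had a median of 4327 bases. The 9 members higher in replicates 1 and 2 spanned 470 (Hist1h4h) to 1831 bases (H2afj). Of the other members averaging 1 CPM or more, H1fx (1217 bases) and H2afx (1384) lay within that span. The rest were longer, from 1930 bases (Hist1h1e) to 6809 (H2afy). The 9 were thus mostly shorter than the other histone genes at this level, and the part of length was not tested.

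Genes of the machinery that makes the 3′ end of replication-dependent mRNAs were mostly detected. Of 14 genes on that list, 13 were in the table and 11 were detected, and Rnu7, the short non-coding U7 RNA, was at 0 throughout. Slbp, which binds the stem-loop, had 100.2 and 75.4 CPM in replicates 1 and 2, and 20.6 and 27.0 CPM in replicates 3 and 4. Directions within the list differed: Slbp was higher in replicates 1 and 2 (log2 difference 1.84), as was Ncbp1, while Casp8ap2 (-1.10), Npat (-0.95) and Eri1 (-0.80) were lower there. Cpsf2, a subunit of the cleavage complex, had 99.6, 96.4, 99.2 and 116 CPM (103 ± 9.13), and Ncbp1, the cap-binding protein, 77.6 ± 38.4 CPM (SD, n = 4 each). Zfp473, a zinc finger protein that works with Slbp and the U7 particle, averaged 0.271 ± 0.141 CPM.

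Of the 25 chaperones and remodellers that place histones, 22 were detected, and the list summed to 2375 to 2475 CPM. The highest were Atrx, which places H3.3 at repeats together with Daxx, with 432 ± 207 CPM, Nap1l4, an H2A and H2B chaperone, with 264 ± 114 CPM, and Npm1, a nucleolar histone chaperone, with 263 ± 33.0 CPM (SD, n = 4 each). The undetected 3 were Asf1b, Chaf1a and Chaf1b, which serve nucleosome assembly at replication in dividing cells, with means of 1.17, 0.599 and 0.903 CPM. Ubn1, part of the HIRA complex that deposits H3.3, had 69.2 ± 24.8 CPM.

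Of the 18 proliferation markers, 13 were detected, and their sum was 243 and 253 CPM in replicates 1 and 2, beside 145 and 131 CPM in replicates 3 and 4. E2f1 alone gave 87.5 ± 40.9 CPM of it. Birc5 followed with 18.8 ± 5.66 CPM and Mcm4 with 14.98 ± 11.7 CPM, and Mki67 had 9.74 ± 3.56 CPM (SD, n = 4 each). Mki67 ran against the sum, with 8.48 and 5.46 CPM in replicates 1 and 2, and 11.3 and 13.7 CPM in replicates 3 and 4. Tyms (log2 difference -0.46) and Mcm2 (-0.20) also ran against it without overlap. Cdk1 (-0.28), Mcm7 (-0.13) and Top2a (-0.06) had negative differences as well, and the rest of the list had positive ones. E2f1 averaged 122 CPM in replicates 1 and 2 and 52.9 CPM in replicates 3 and 4.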

How the data were processed

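RNA was measured in 4 libraries of mouse DRG, all from the MGO group. Per the labels' protocols, TRIzol RNA was depleted of ribosomal RNA and made into libraries with a QuantSeq 3′ kit. Cufflinks 2.2.1, Bowtie2 2.2.9, TopHat2 2.1.1, FastQC 0.11.5, mm10 and GRCm38.p4 are named, with no role, in the submitters' processing notes. How reads were counted, with which strand setting, and what was done with multiply mapped reads is not given in the sources used here, so reads shared by near-identical genes may be split or dropped. The deposited values are TPM per the file headers but had the form of CPM: each library summed to 1000000, and 98.277% or more of the values above 0 were, within 0.05, whole multiples of a step that all genes in the library share. If a step is 1 read, the libraries hold 10138766, 8975726, 5576834 and 7223765 reads. No count model was used, since the comparisons are between genes within 1 group.

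Members were found by symbol. Annotation, transcript models and motif searches used GENCODE M21 (GRCm38), which held 84 of the 86 members and 48052 of all genes (99.2%), and promoter sequence came from RefSeq (GRCm38.p6). Copies were sought with BLAST 2.17.0 at 97% identity over 80% of the coding part or of the last 300 bases. Each gene with a mean of at least 1 CPM was compared with H3f3b, H2afz or H1f0 by limma 3.58.1 in R 4.3.3, on its log2(CPM + 1) minus that of the other gene in each library, intercept only and two-sided, with Benjamini-Hochberg adjustment over all genes tested and a call under 0.05. Folds on this scale understate the differences of low genes. The 2 class sums were set against each other by an exact sign-flip test. Alternatives were the pseudocount (0.1), the filter, the scaling, division by exonic length, the library pair as a term or as means, other detection limits and each replicate left out. H3f3a summed with Gm17275 was added after seeing the data. The scripts were tested on simulated data and run with Python 3.11.15, numpy 2.4.6, pandas 2.3.3, scipy 1.17.1 and matplotlib 3.10.9.

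The members and lists were chosen with earlier results of these data known. The rule for named genes takes in full the replication-independent members with a mean of at least 1 CPM, the 12 highest replication-dependent members and the 3 with the largest pair difference in each direction, and of each other list the 3 highest members, Slbp, Mki67 and any member at 0. Other list members are given by count. Zfp473, Casp8ap2, Npat, Eri1, the markers named within cell type lists, Ubn1, the 3 undetected chaperones and the sequences printed were chosen after their values were seen. So were the proliferation markers Tyms, Mcm2, Cdk1, Mcm7 and Top2a.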

Additional observations from a re-analysis of the deposited data

Results flagged for a closer look

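Hist2h2be, an H2B gene of the Hist2 cluster, had 0.138 CPM in replicate 4, which is 1 read, while the other 3 libraries had 1.28 to 1.45 CPM. Its distance from the nearest library was 0.873 of the whole range, above Dixon's limit for 4 values. Of 45 values examined in this way, 20 of them members, this was the only 1 past the limit, and chance alone gives about 1 in 20.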

How the results depend on the processing

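No paired analysis was possible because all libraries belong to 1 group. The summed replication-independent minus replication-dependent difference ranged from 847 to 925 CPM over the libraries left out in turn, detected replication-dependent genes numbered 8 to 9, and 10 replication-independent genes were detected each time. Leaving out each library gave 17 to 19 members lower than H3f3b, 14 to 18 lower than H2afz and 10 to 14 lower than H1f0, with 0 to 2 members and 204 to 466 genes higher than H1f0. With no filter on low values, 38, 37 and 33 of 39 members and 22995, 21603 and 20330 of 23507 genes were lower than H3f3b, H2afz and H1f0, since more low genes were tested. Divided by exonic length, 89 genes were higher than H2afz, and 0 members and 202 genes were higher than H1f0. With the library pair as a term, 1 member and 495 genes were higher than H2afz, and 2 members and 1035 genes were higher than H1f0. On pair means, 61 genes were higher than H2afz, and 0 members and 129 genes were higher than H1f0. Without these changes, 143 genes were higher than H2afz and 351 higher than H1f0. With a mean of at least 10 CPM, 1952 and 759 of 8580 genes differed between the library pairs, since fewer genes were counted. The causes of the other changes were not tested. In a chosen set of single-gene comparisons, values kept their direction under every alternative run: 313 stayed on their side of the threshold, and 5 gained and 7 lost a call. The set held the members averaging 1 CPM or more against H3f3b, and Hist1h1c, Hist1h1e and H1fx against H1f0. It also held H2afv, H2afy, H2afy2, H2afx, H2afj and Hist3h2a against H2afz. Other comparisons, among them H3f3b against H1f0 with its lost calls given above, are not in these counts. H2afz against H3f3b and Hist1h1c against H1f0 passed with the library pair as a term (adjusted p = 8.74e-05 and 3.1e-06, limma) but not on pair means (adjusted p = 0.132 and 0.34), and Hist1h1c was above H1f0 in replicates 1 and 2. Values under 3 reads, and so most replication-dependent genes, lie below what this depth resolves.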

Other observations

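Outside the naming pattern, Cenpa, the H3 variant of centromeres, had 21.3, 24.6, 17.4 and 14.1 CPM (19.4 ± 4.58, SD, n = 4). Hils1, a linker histone of spermatids, had 1 read in replicate 1 and 0 in the other libraries.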
